A study of Mus musculus with 23 samples.

Results

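The genes of 6 families of splicing and RNA-binding proteins were followed through postnatal development of the mouse prefrontal cortex. A gene belonged to the set when the platform annotation gave its probe set 1 symbol that began with Hnrnp or Hnrp, Srsf or Sfrs, Snrp, Sf3a or Sf3b, Prpf, or Rbm with a digit or x after it. Of 12394 genes on the array, 78 matched, with 195 probe sets. Where a gene had several probe sets, the 1 that was brightest on average represented it, and the gene was kept when its log2 value reached 4 on at least 4 arrays. This left 77 genes: 18 of the hnRNP family, 9 SR proteins (Srsf), 8 snRNP genes (Snrp), 9 of splicing factor 3 (Sf3a and Sf3b), 10 of the Prpf group and 23 of 24 Rbm genes. Rbm47 was the gene just inside the threshold, with 4 arrays at or above it and a mean of 3.90, and Rbm38, with 0 such arrays and a mean of 2.87, was left out. A further 20 probe sets that carried several symbols, 1 of them matching, were not used.

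RNA from the prefrontal cortex of wild-type male C57BL/6 mice was hybridised to Affymetrix MOE430A arrays, 1 animal per array, with no treatment. There were 6 animals at postnatal week 2, 4 at week 3, 4 at week 4, 5 at week 5 and 4 at week 10. The dissected piece was everything in front of a coronal cut, so it may hold tissue next to the prefrontal cortex. The cortical neuron genes Tbr1 and Neurod6 had mean log2 values of 9.38 and 9.25 over the 23 arrays. The 7 tested markers of striatal neurons varied most at week 5, where their mean per animal ran from 7.12 to 9.80.

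Messenger RNA precursors are spliced by the spliceosome, which is built from small nuclear ribonucleoprotein particles (snRNPs) and many further proteins. The U2 particle, with splicing factor 3, binds the branch site of the intron, while Prpf proteins act in the assembly and activation of the tri-snRNP and the active complex. SR proteins mostly promote the use of nearby splice sites, and hnRNP proteins bind the transcript and often oppose them; Rbm proteins are a loose group that shares an RNA-recognition motif and acts in splicing, ribosome assembly and RNA turnover. In the brain, alternative splicing is extensive and changes as neurons mature.

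The level of the set as a whole hardly moved with age. The same held for all genes tested, whose median log2 change from week 2 to week 10 was 0.01. Array medians also lay close together, between 6.15 and 6.27. The mean log2 value over the 77 genes was 8.96 ± 0.05 (SD, n = 6) at week 2, 8.90 ± 0.02 (n = 4) at week 3, 8.99 ± 0.03 (n = 4) at week 4, 8.94 ± 0.06 (n = 5) at week 5 and 8.96 ± 0.04 (n = 4) at week 10. The ages overlapped, apart from weeks 3 and 4, whose animals ranged from 8.87 to 8.92 and from 8.96 to 9.02. Over the same ages the mean of 12 markers of immature neurons went from 10.34 ± 0.33 at week 2 to 8.85 ± 0.11 at week 10. The mean of the 18 hnRNP genes was 10.31 ± 0.04 at week 2 and 10.41 ± 0.05 at week 10. The lowest week 10 animal, at 10.362, was just above the highest week 2 animal, at 10.359. The week 4 animals, from 10.39 to 10.49, also lay above those of weeks 2 and 3, while those of week 5 ran from 10.27 to 10.47.

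**Figure D1:**
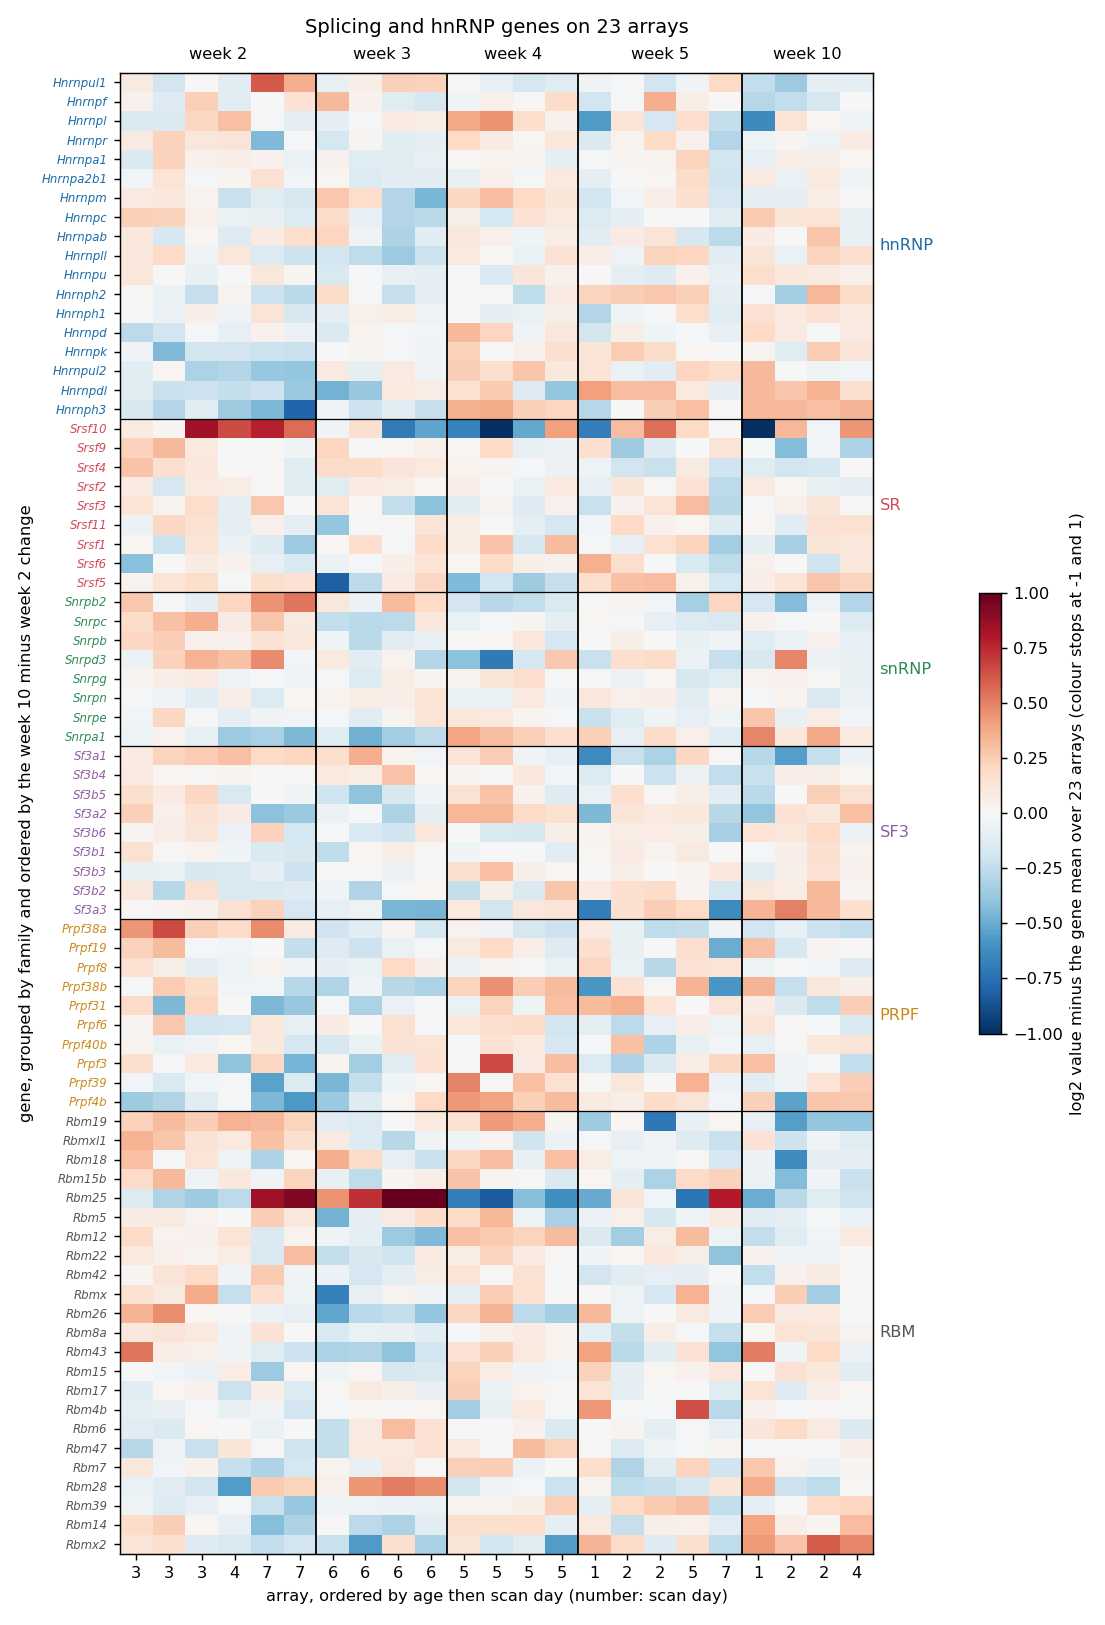
Each row is 1 of the 77 genes and each column 1 of the 23 arrays, ordered by age and then scan day. The colour gives the log2 value minus the gene's mean over all arrays, and most rows stay pale. Rbm25 is darkest red at week 3 and on the 3 arrays of scan day 7, 2 at week 2 and 1 at week 5.

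Between week 2 and week 10, the longest interval sampled, 6 of the 77 genes rose and 6 fell. A gene is said to have risen or fallen when limma's adjusted p over all 16103 tested probe sets was under 0.05. These 12 genes are 15.6% of the set, against 18.5% of all 9196 genes tested. For rises the share of all genes was 7.12%, and for falls 11.4%. The median log2 change of the set was 0.00, and of all genes 0.01. Changes of at least 0.5 in either direction were seen in 4 of the 77 genes (5.19%) and in 9.58% of all genes. In 54 genes (70.1%) the change stayed under 0.2, as it did in 57.8% of all genes. Between the animals of the 2 ages there was no overlap in 5 genes that lay above and 5 that lay below. Of all genes, 6.54% lay above, 9.31% below and 15.8% either way. When each array was centred on its median the split of 6 rises and 6 falls became 9 and 3. With the actin 3′ to 5′ difference as a covariate it became 3 and 9. Of all 16103 probe sets 1031 rose and 1717 fell in the main fit. With centring these counts were 1867 and 1230, and with the actin covariate 794 and 1781.

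**Figure D2:**
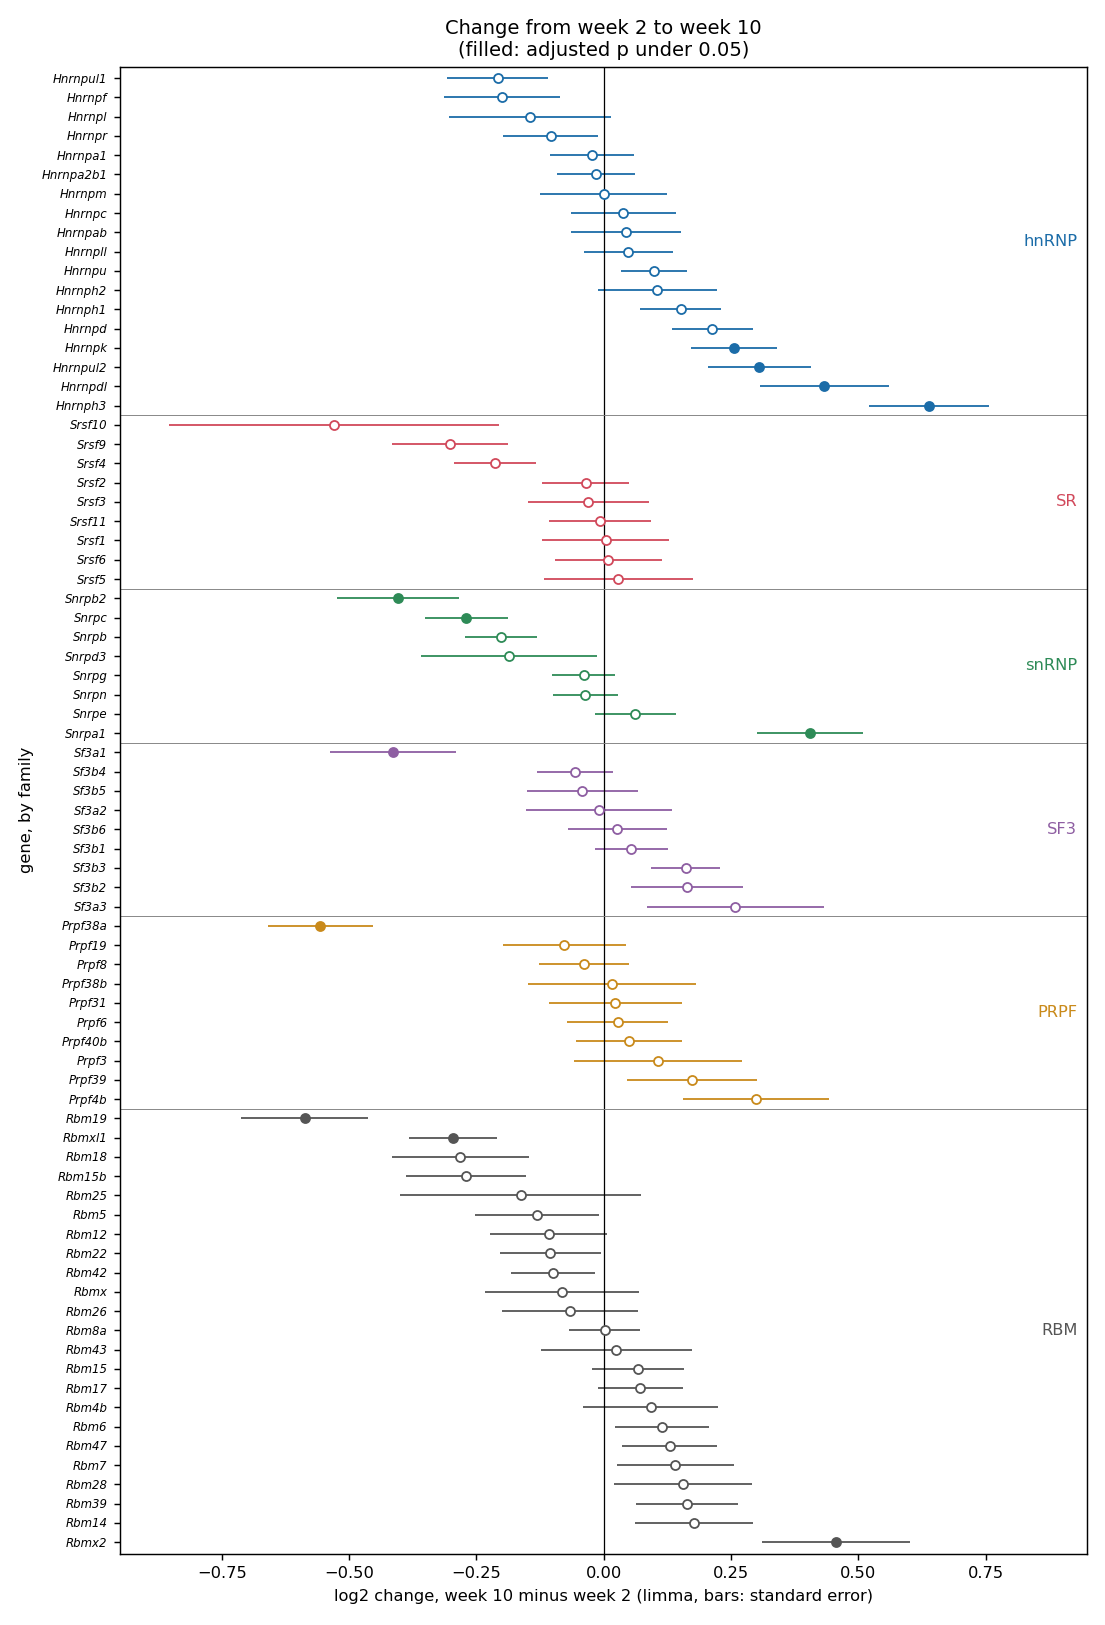
The log2 change from week 2 to week 10 is shown for each gene by family, with its standard error. Filled points had an adjusted p under 0.05. The 4 filled hnRNP genes lie above 0 and no SR gene is filled.

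Promoters of 4 of the genes that changed are given first: Hnrnph3 and Snrpa1, whose rises held under every alternative tried, and Prpf38a and Rbm19, the largest falls. They are RefSeq sequences on GRCm38.p6, each with 250 bases before the annotated start and 50 after it, at chr10:63023800-63024099, minus strand, chr7:66060086-66060385, plus strand, chr4:108579287-108579586, minus strand, and chr5:120116263-120116562, plus strand. Capitals mark any of 6 motifs on either strand: the CCAAT box (CCAAT), the ETS core (CGGAAG), the GC box (GGGCGG), the E-box (CACGTG), most of a cyclic AMP response element (TGACGT) and the TATA box (TATAAA).
Hnrnph3: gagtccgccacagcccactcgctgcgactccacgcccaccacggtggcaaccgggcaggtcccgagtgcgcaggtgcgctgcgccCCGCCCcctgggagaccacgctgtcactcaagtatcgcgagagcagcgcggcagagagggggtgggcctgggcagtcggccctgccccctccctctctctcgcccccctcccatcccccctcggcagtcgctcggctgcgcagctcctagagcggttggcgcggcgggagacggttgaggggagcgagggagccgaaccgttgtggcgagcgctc
Snrpa1: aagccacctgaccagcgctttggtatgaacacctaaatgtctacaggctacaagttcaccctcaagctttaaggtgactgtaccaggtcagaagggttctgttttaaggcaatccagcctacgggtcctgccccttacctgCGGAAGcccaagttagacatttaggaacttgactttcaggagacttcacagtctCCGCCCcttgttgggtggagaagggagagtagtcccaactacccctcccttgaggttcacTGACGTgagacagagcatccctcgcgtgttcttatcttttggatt
Prpf38a: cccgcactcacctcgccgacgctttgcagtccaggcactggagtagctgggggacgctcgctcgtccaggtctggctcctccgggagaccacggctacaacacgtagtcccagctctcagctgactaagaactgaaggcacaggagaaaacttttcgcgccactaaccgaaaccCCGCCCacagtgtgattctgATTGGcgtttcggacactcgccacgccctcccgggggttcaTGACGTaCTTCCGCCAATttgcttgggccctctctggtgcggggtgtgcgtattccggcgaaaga
Rbm19: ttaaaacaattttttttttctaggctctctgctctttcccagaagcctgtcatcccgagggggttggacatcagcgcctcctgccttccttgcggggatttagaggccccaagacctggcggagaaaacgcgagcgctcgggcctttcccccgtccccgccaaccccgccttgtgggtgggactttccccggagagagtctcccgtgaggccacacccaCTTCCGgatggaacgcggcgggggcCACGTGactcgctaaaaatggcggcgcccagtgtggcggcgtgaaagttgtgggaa
In Hnrnph3 the capitals are a GC box. In Snrpa1 they are an ETS core, a GC box and a TGACGT close to the start. Prpf38a has a GC box, CCAAT on both strands, TGACGT and an ETS core, and the last of these adjoins a CCAAT. Rbm19 has an ETS core and an E-box.

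Of the 77 genes, 70 had at least 1 promoter in the table, 94 promoters in all. CGGAAG was found in 44.7% of those 94 and in 16.9% of the 32851 promoters in the table. GGGCGG was in 59.6% against 35.7%, TGACGT in 20.2% against 7.51%, CCAAT in 48.9% against 37.4%, CACGTG in 11.7% against 7.15%, and TATAAA in 10.6% against 13.6%. The members' promoters also held more CG pairs, with a median of 24 against 7. A match is a run of letters in this window and no evidence of binding.

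On the chosen probe sets, 4 of the 18 hnRNP genes (22.2%) changed between weeks 2 and 10, against 18.5% of all genes. All 4 rose, as did 7.12% of all genes, and the other 14 did not pass the test. Of 18 alternative fits, Hnrnph3 passed in all, Hnrnpdl in 13, Hnrnpul2 in 12 and Hnrnpk in 10. Hnrnph3, of the hnRNP H and F family, which binds runs of G, had a lowest, median and highest log2 value of 8.42, 8.89 and 9.10 at week 2. At week 10 the animals were at 9.52, 9.53, 9.54 and 9.55, all above every week 2 animal. The change was 0.64 (SE 0.12, 1.56-fold, limma adjusted p = 0.00066). The rise was already present at week 4, where the animals lay at 9.43, 9.45, 9.57 and 9.59, after 8.98, 9.01, 9.11 and 9.16 at week 3. The week 5 animals spread from 8.925 to 9.516 and overlapped with those of weeks 2, 3 and 4, while the lowest week 10 animal, at 9.517, was just above them.

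Hnrnpdl, a close relative of the AU-rich element binding protein Hnrnpd, ran from 11.53 to 11.79 at week 2, with a median of 11.69. Its week 10 animals, at 12.06, 12.18, 12.23 and 12.25, were all higher, and the change was 0.43 (SE 0.13, adjusted p = 0.022). In between, at weeks 3 and 4, the animals of each age fell on both sides of the week 2 range. Of its other tested probe sets, 2 rose by 0.44 and 0.52, and 3 did not pass. Without week 10 animal 1 its adjusted p became 0.055, and without animal 7 it became 0.054.

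Hnrnpul2, of the hnRNP U-like proteins, rose by 0.31 (SE 0.10, adjusted p = 0.041). Its median was 10.56 at week 2, between 10.47 and 10.88, and its week 10 animals were at 10.82, 10.84, 10.87 and 11.19, so the ages overlapped. The highest of them, animal 1, was hybridised on a chip of another lot and scanned on scan day 1, and without it the change was 0.22 (adjusted p = 0.161). Hnrnpk, which binds C-rich RNA through KH domains, rose by 0.26 (SE 0.08, adjusted p = 0.041) with overlapping animals: 12.41 to 12.82 at week 2 and 12.73, 12.89, 12.98 and 13.11 at week 10. Its 3 other probe sets gave changes of 0.10, 0.05 and -0.05, none of which passed. Hnrnpa2b1, which binds RNA transport signals such as that of Mbp, was among the steadiest bright genes, at 12.09 ± 0.08 (SD, n = 6) at week 2 and 12.07 ± 0.08 (n = 4) at week 10.

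None of the 9 SR genes passed limma's test between weeks 2 and 10. An unadjusted p under 0.05 was seen in 2 of them and in 30.7% of all 16103 probe sets. Srsf1, the founding SR protein, was at 10.48 ± 0.17 (n = 6) at week 2 and 10.53 ± 0.21 (n = 4) at week 10, a fitted change of 0.00 (SE 0.13). Srsf5 was at 10.52 ± 0.08 and 10.58 ± 0.09 at these ages, but at 9.97, 10.06, 10.18 and 10.22 at week 4, below every animal of week 2. Srsf5 and Srsf4 were the SR genes that differed among the 5 ages by the F-test (adjusted p = 0.035 and 0.039). Srsf10, a splicing repressor when dephosphorylated, had the widest spread of the family, with week 10 animals at 6.55, 7.65, 8.01 and 8.11. Its fitted change of -0.53 had a standard error of 0.33.

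Among snRNP genes 1 rose and 2 fell. Snrpa1, the A′ protein of the U2 snRNP, had a lowest, median and highest value of 8.34, 8.59 and 8.83 at week 2. Its week 10 animals were at 8.88, 8.90, 9.17 and 9.28, all higher, for a change of 0.40 (SE 0.10, 1.32-fold, adjusted p = 0.010). Snrpb2, the B″ protein that binds the U2 snRNA together with it, fell by 0.40 (SE 0.12, adjusted p = 0.024). Its values overlapped between ages, at 8.92 to 9.55 at week 2, with a median of 9.25, and 8.58, 8.72, 8.84 and 8.96 at week 10. Snrpb2 had 3 tested probe sets, and a second gave -0.13 and did not pass. With the mean of all probe sets of each gene the change of Snrpb2 was -0.10 (limma adjusted p = 0.46). That mean lies above both values, so the third probe set, whose value is not given here, went the other way. Snrpc, the C protein of the U1 snRNP, fell by 0.27 (SE 0.08, adjusted p = 0.027), from between 9.18 and 9.47 to 8.97, 9.09, 9.09 and 9.14, without overlap. The remaining 5 genes of the family, among them the ring proteins Snrpb, Snrpd3, Snrpe and Snrpg, did not pass. Over the 18 alternative fits Snrpa1 passed in all, Snrpb2 in 14 and Snrpc in 10.

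In splicing factor 3 and the Prpf group 1 gene each fell. Sf3a1, a subunit of the SF3a complex of the U2 particle, ran from 8.05 to 8.27 at week 2, with a median of 8.19. At week 10 the animals were at 7.42, 7.70, 7.74 and 7.91, all below, and the change was -0.41 (SE 0.12, adjusted p = 0.024). Without any 1 of week 2 animals 4, 5 and 6 or week 10 animal 6 its adjusted p lay above the threshold, at most at 0.095. Prpf38a, needed for activation of the spliceosome, was at 8.55, 8.79 and 9.11 (lowest, median and highest) at week 2 and at 8.21, 8.24, 8.27 and 8.38 at week 10. It changed by -0.56 (SE 0.10, 1.47-fold lower, adjusted p = 0.00072), again without overlap. Its lower level was reached by week 3, where the animals were at 8.26, 8.28, 8.34 and 8.48 (change -0.49, SE 0.10, adjusted p = 0.0032). From week 2 to week 10, Prpf38a passed in 17 of 18 alternative fits and Sf3a1 in 14. The catalytic-core gene Prpf8 and the largest SF3b subunit Sf3b1 gave changes of -0.04 (SE 0.09) and 0.05 (SE 0.07).

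Of the 23 Rbm genes 1 rose and 2 fell. Rbm19, a nucleolar protein of ribosome biogenesis, lay between 5.35 and 5.48 at week 2 and at 4.58, 4.74, 4.74 and 5.05 at week 10. Every week 10 animal was lower, and the change was -0.59 (SE 0.13, 1.50-fold, adjusted p = 0.0025). The path was not even: at week 3 the animals were at 4.99, 5.02, 5.14 and 5.23, all below week 2, and at week 4 they were at 5.16, 5.28, 5.50 and 5.56, with overlap. Rbmx2, whose yeast counterpart Ist3 belongs to a complex of the active spliceosome, ran from 5.04 to 5.45 at week 2, with a median of 5.15. Its week 10 animals were at 5.57, 5.72, 5.78 and 5.89, all higher, and the change was 0.46 (SE 0.15, adjusted p = 0.035). Without any 1 of week 10 animals 1, 7 and 8 or week 2 animals 5 and 6 its adjusted p rose above the threshold, to at most 0.092. Both genes gave low values on the array, near 5 on the log2 scale. Over 17 alternative fits Rbm19 passed in 16 and Rbmx2 in 10. Rbmxl1 is an intronless relative of Rbmx whose transcripts can be hard to tell from it on an array. Rbmxl1 fell by 0.30 (SE 0.09, adjusted p = 0.022), with overlapping animals, and passed in 15 of 18 alternative fits.

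**Figure D3:**
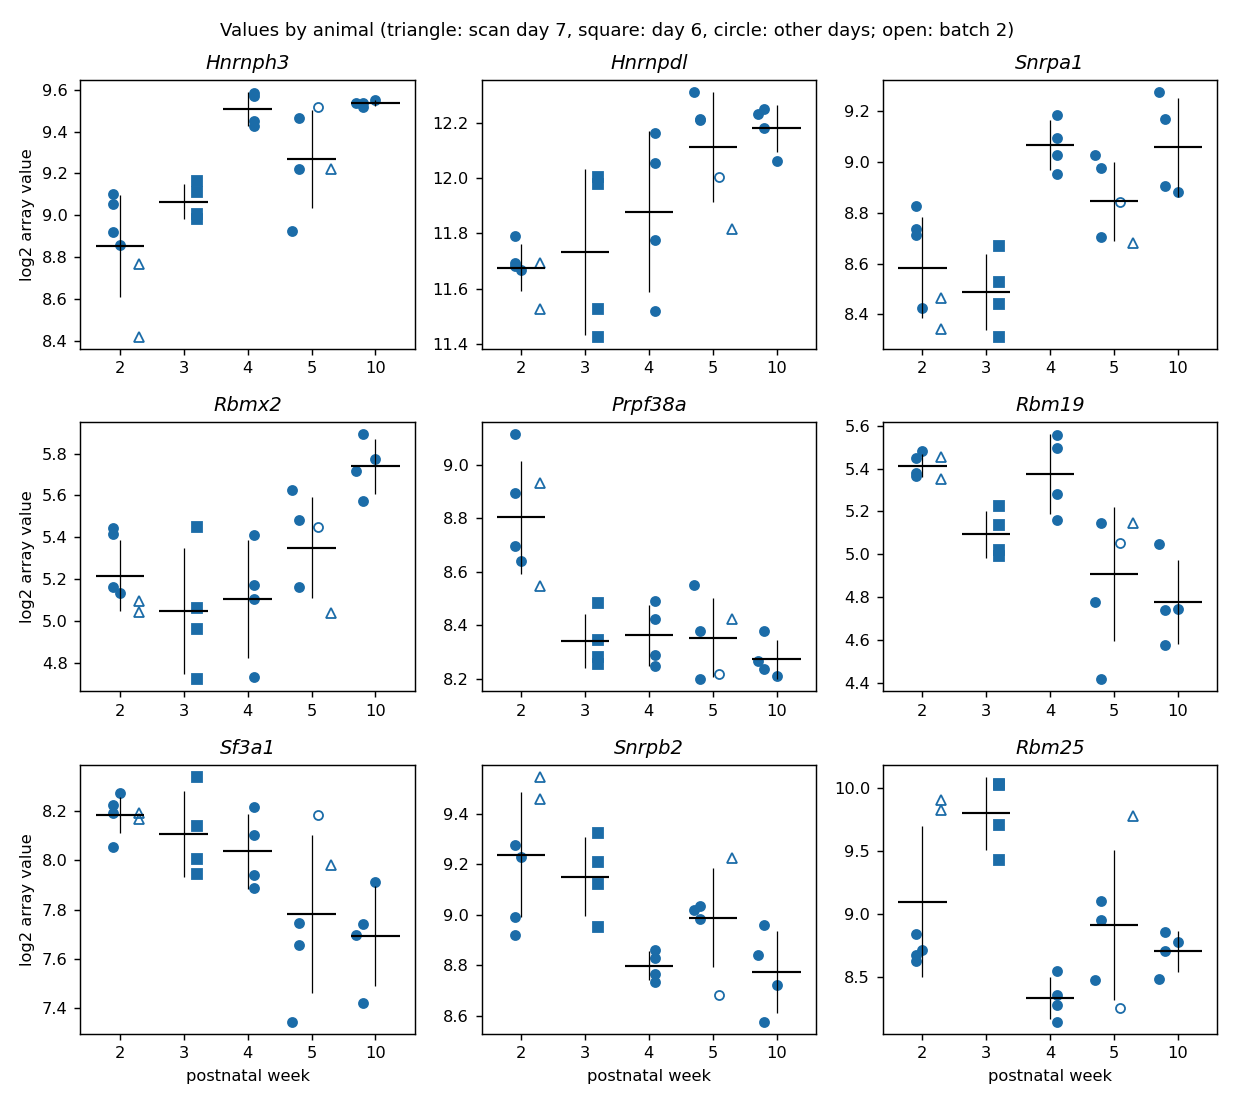
Log2 values of 9 genes are shown for each animal by postnatal week, with the mean (bar) and SD (vertical line). Triangles mark scan day 7, squares scan day 6 and open symbols batch 2. Hnrnph3 and Snrpa1 are high from week 4, Prpf38a is low from week 3, and Rbm25 is high on the triangles and squares.

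Age and scan day overlapped little. All week 3 arrays were scanned alone on day 6 and all week 4 arrays on day 5. Day 4 held 1 animal each of weeks 2 and 10, and on that day all 12 genes differed in the direction of the test. For all genes that changed the count was 1681 of 1701, and those arrays were part of the fit. On day 4, Hnrnph3 was at 8.86 at week 2 and 9.55 at week 10, and Prpf38a at 8.64 and 8.21. When scan day was fitted as a fixed term, which left out week 3, 4 of the 12 passed: Hnrnph3 (0.82), Snrpa1 (0.47), Hnrnpul2 (0.46) and Snrpb2 (-0.51). Of all 16103 probe sets 714 rose and 809 fell in that fit, against 1031 and 1717 in the main fit. In whole tissue, fewer cells of a type and less RNA per cell cannot be told apart. All 12 immature neuron markers fell from week 2 to week 10, as did 5 of 5 markers of meninges and fibroblasts, 6 of 9 of endothelium and pericytes and 4 of 6 of oligodendrocyte precursors. The mean of the meningeal markers ran from 7.80 to 8.41 at week 2 and from 6.21 to 6.72 at week 10. Of 8 astrocyte markers 2 rose and 3 fell, of 9 microglial markers 2 rose and 1 fell, and of 8 interneuron markers 2 rose. Of 8 myelin markers 1 fell, of 2 blood markers 1 fell, of 3 choroid plexus markers 1 rose, and none of the 4 cortical or 7 striatal neuron markers passed. Their part in the changes of the splicing genes was not tested.

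Between weeks 2 and 3, an interval of rapid synapse formation in the rodent cortex, 2 of the 77 genes rose and 6 fell. Of all genes, 5.62% rose and 9.61% fell, 15.2% together. Rbm26 fell by 0.53 on the log2 scale (SE 0.13, adjusted p = 0.010), from between 8.09 and 8.63 to 7.64, 7.78, 7.90 and 7.93, without overlap. It was back at 8.12 to 8.49 at week 5. Snrpc, Rbmxl1, Hnrnpll and Snrpb fell by 0.41, 0.33, 0.31 and 0.27, beside Prpf38a. Rbm25, in human cells a U1-associated regulator of alternative splicing, rose by 0.93 (SE 0.24, adjusted p = 0.011), and Rbm28, a nucleolar and snRNP-associated protein, by 0.54 (SE 0.14, adjusted p = 0.0097). With a random block for scan day in place of batch limma called 0 of the 77 genes, with 9 at an unadjusted p under 0.05. With days 6 and 7 as 1 term it called 2. Of all 16103 probe sets, 1074 rose and 1496 fell in the main fit. The block left 23 and 89, and days 6 and 7 as 1 term 483 and 675.

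Rbm25 was high on the arrays of scan days 6 and 7. At week 2 the animals of scan day 7 were at 9.82 and 9.90 and the others ran from 8.63 to 8.84. At week 3, all of day 6, they were at 9.43, 9.71, 10.02 and 10.03. At week 5 the animal of day 7 was at 9.77 and the others ran from 8.26 to 9.10. With days 6 and 7 as 1 term the change from week 2 to week 3 was -0.05 (adjusted p = 0.91). Of the 2 other probe sets of Rbm25, neither passed, with changes of -0.10 (SE 0.11) and 0.01 (SE 0.20).

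From week 3 to week 4, 6 genes rose and 2 fell. Of all genes, 5.47% rose and 4.25% fell, 9.72% together. The rises were of Snrpa1 (0.58, SE 0.11, adjusted p = 0.0011), Prpf38b (0.55), Rbm12 (0.51), Hnrnph3 (0.44), Prpf39 (0.42) and Hnrnpll (0.30), and each had every week 4 animal above every week 3 animal. For Snrpa1 the week 3 animals were at 8.31, 8.44, 8.53 and 8.67 and the week 4 animals at 8.95, 9.03, 9.10 and 9.19. For Rbm12 they were at 6.89, 6.96, 7.24 and 7.28, then 7.55, 7.59, 7.62 and 7.64. Prpf38b, a relative of Prpf38a, lay at 7.29, 7.31, 7.33 and 7.57 at week 3 and at 7.83, 7.86, 7.92 and 8.07 at week 4. Prpf39, whose yeast counterpart is a protein of the U1 particle, and Hnrnpll, known in T cells as a regulator of Ptprc splicing, changed less. The falls were of Rbm25 (-1.46, SE 0.25, adjusted p = 0.00044), to 8.15, 8.28, 8.36 and 8.55, and Rbm28 (-0.48, SE 0.14, adjusted p = 0.031). Animals did not overlap in 13 of the 77 genes that lay above and 4 that lay below. Of all genes, 11.8% lay above, 6.54% below and 18.3% either way. The actin 3′ to 5′ difference, a measure of RNA length, was 1.18 ± 0.08 at week 3 and 2.07 ± 0.38 at week 4. The same difference for Gapdh overlapped, at 0.08, 0.21, 0.23 and 0.32 at week 3 and 0.07, 0.08, 0.24 and 0.36 at week 4. With the actin difference as a covariate limma called 0 of the 77 genes, with 6 at an unadjusted p under 0.05. With the random block for scan day in place of batch it was again 0, with 5. Over all 16103 probe sets the main fit gave 784 rises and 1055 falls. The actin covariate left 0 and 0, and this block 0 and 1.

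**Figure D4:**
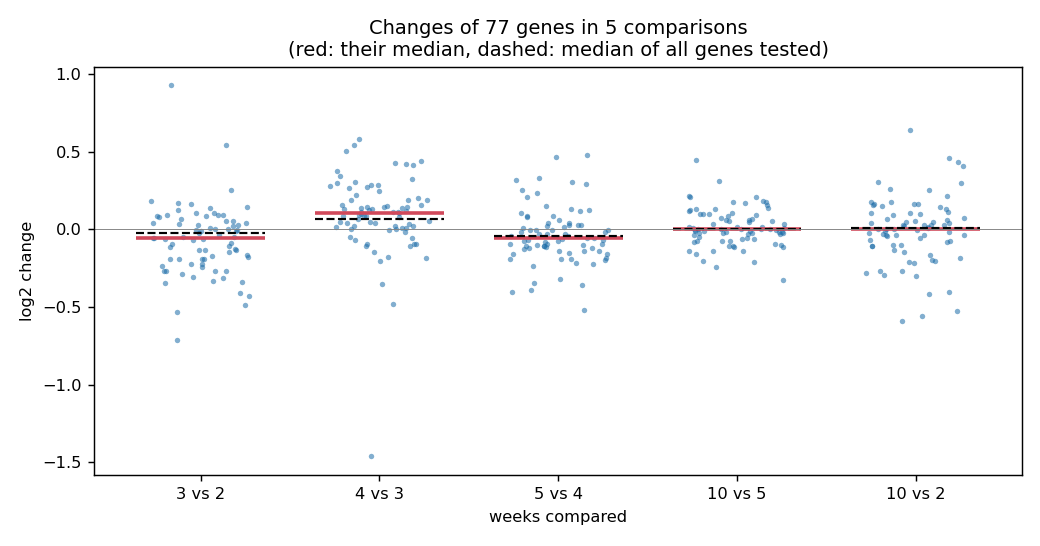
Each point is the log2 change of 1 of the 77 genes in 1 of 5 comparisons of ages, with the median of the set (red) and of all genes tested (dashed). The points spread least from week 5 to week 10, and the point near -1.46 from week 3 to week 4 is Rbm25.

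After week 4 no gene of the set passed the test. From week 4 to week 5 the count was 0 of 77 in limma, and 0.0761% of all genes changed. An unadjusted p under 0.05 was seen in 12 of the 77 (15.6%) and in 13.0% of all 16103 probe sets. The lowest adjusted p was that of Rbm19, at -0.52 (adjusted p = 0.11). From week 5 to week 10 it was again 0 of 77, against 0.0435% of all genes. Here an unadjusted p under 0.05 was seen in 6 of the 77 (7.79%) and in 5.45% of all probe sets. The changes of the 77 genes then lay between -0.33 and 0.45. Over all 5 ages the F-test found 22 of the 77 genes (28.6%, against 31% of all genes), and 4 of these, Prpf4b, Srsf5, Srsf4 and Sf3b3, passed in none of the 5 comparisons of 2 ages above. Prpf4b, a kinase of the tri-snRNP, had a mean of 9.07 ± 0.21 (n = 6) at week 2, 9.72 ± 0.09 (n = 4) at week 4 and 9.44 ± 0.40 (n = 4) at week 10, where the lowest animal was at 8.84 and the other three lay between 9.62 and 9.65. Within batch 1, week 5 against week 2 gave 6 of 77 genes, and within batch 2 it gave 4. In batch 1 Sf3a1 (-0.60), Rbm19 (-0.64), Prpf38a (-0.46) and Srsf4 (-0.29) fell while Hnrnpdl (0.54) and Hnrnpk (0.40) rose. In batch 2, with 2 animals per age, Hnrnph3 (0.77) and Hnrnpul2 (0.58) rose and Snrpb2 (-0.55) and Rbmxl1 (-0.40) fell. The shares of all genes were 2.68% higher and 7.71% lower in batch 1, and 6.73% and 4.03% in batch 2. The difference between the batches' changes passed in limma for 0 of 77 genes, with 9 at an unadjusted p under 0.05. The share of all genes that passed is not given here, so this count cannot be set against it.

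Different probe sets of 1 gene did not always move together. In 47 genes 2 or more probe sets were tested, and the probe sets of 3 genes were called in opposite directions in a comparison. From week 2 to week 10 only an unchosen probe set was called in 7 of the 47. In 4 only the chosen one was called, and in 2 both were. From week 2 to week 3 these counts were 11, 3 and 1, and from week 3 to week 4 they were 9, 4 and 2. From week 2 to week 10, both were called in Hnrnpdl, and only the chosen one in Hnrnpk and Snrpb2. Hnrnpul2, Snrpa1 and Sf3a1 made up the rest of these 2 groups, and their other probe sets are not given here. The widest spread of changes within a gene from week 2 to week 10 was 1.03, in Hnrnpab. In Rbm5, a regulator of apoptosis gene splicing in human cells, the chosen probe set stayed near 10.22 while another rose by 1.74 (SE 0.51) from week 2 to week 3 and fell by 2.62 (SE 0.53) by week 4. A further one fell by 0.73 from week 2 to week 3. That moving probe set was at 8.60 to 9.07 on the week 2 arrays of scan day 7 and at 6.35 to 6.72 on those of day 3.

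In Sf3b1, which binds the branch site region, a probe set rose by 0.93 and fell by 1.55 in the same intervals, a second rose by 0.43 from week 3 to week 4, and the chosen one changed by -0.05 and 0.01. The probe sets of Rbm28 parted from week 3 to week 4, at -0.48 and 0.68. Of the 9 probe sets of Rbm39, a U2AF-related coactivator, 3 rose by 1.02 to 1.07 and then fell by 1.08 to 1.39, while the chosen one changed by 0.03 and 0.15. The probe sequences were not used here, so which transcripts each probe set reads was not tested.

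**Figure D5:**
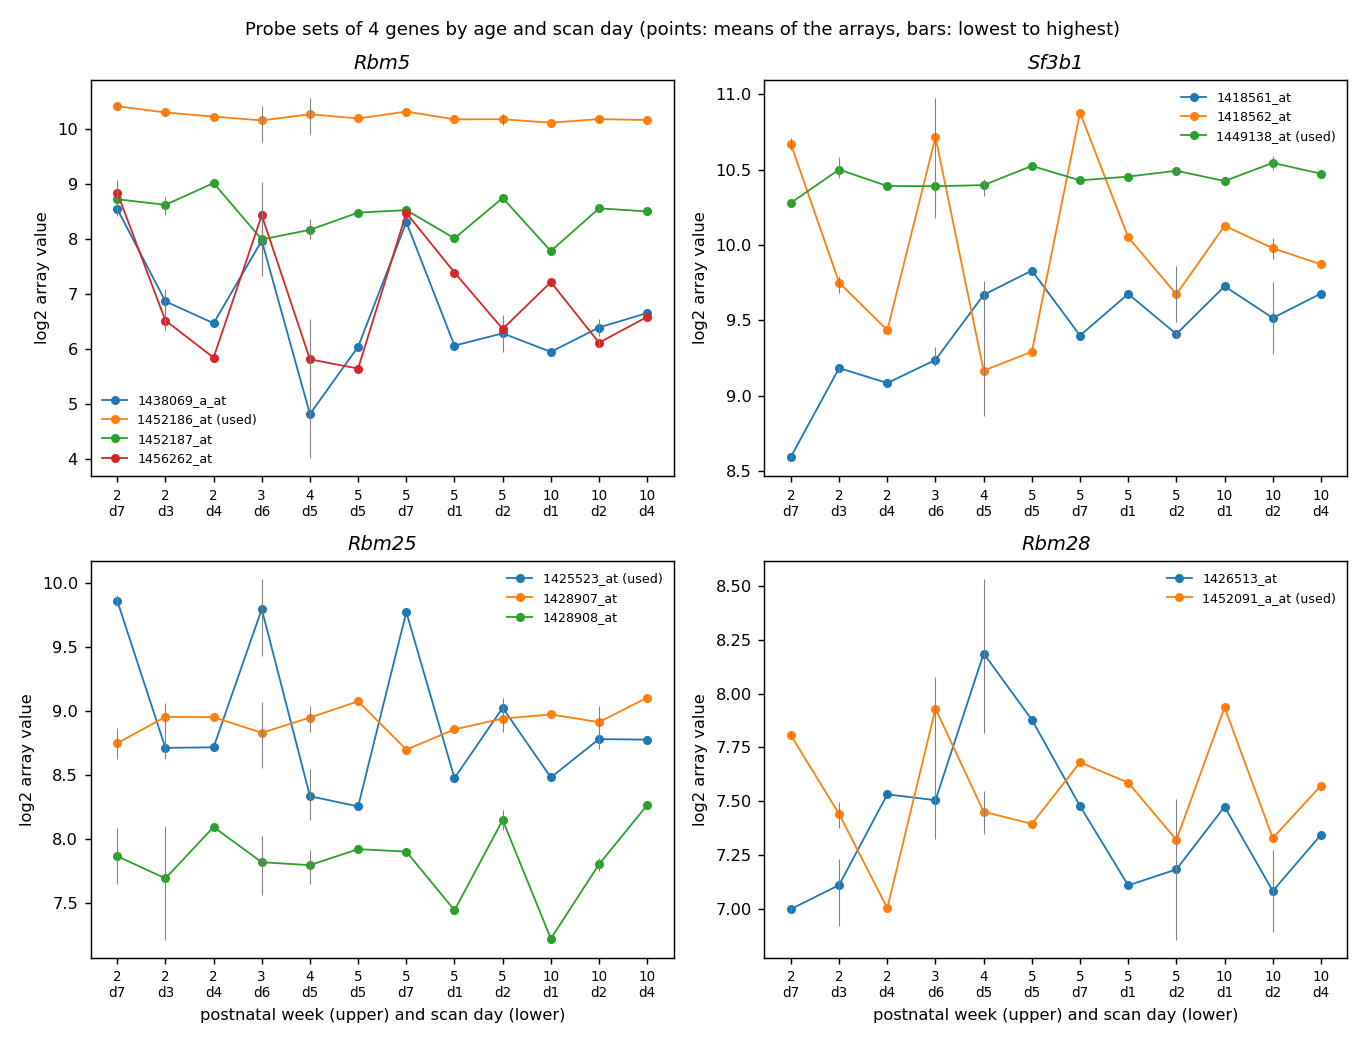
Mean log2 values of each probe set of Rbm5, Sf3b1, Rbm25 and Rbm28 are plotted by week and scan day, with bars from the lowest to the highest array. The chosen probe sets of Rbm5 and Sf3b1 are level, and 2 probe sets of Rbm5 and 1 each of Sf3b1 and Rbm25 peak on days 6 and 7.

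A list of splicing regulators of neurons, not all of them specific to neurons, held 35 tested genes outside these families. Of these, 4 rose and 3 fell from week 2 to week 10, where 18.5% of all genes changed. From week 2 to week 3, 6 rose and 0 fell, and from week 3 to week 4, 1 rose and 6 fell. Syncrip, also known as hnRNP Q, fell by 0.83 (SE 0.17, adjusted p = 0.0016), and Matr3, a nuclear matrix protein, rose by 0.46 (SE 0.10, adjusted p = 0.0021). Celf4, a neuronal regulator of splicing and translation, rose by 0.32 (SE 0.11, adjusted p = 0.047). Of 27 splicing kinases and SR protein partners limma called 0 from week 2 to week 10. An unadjusted p under 0.05 was seen in 1 of them and in 30.7% of all 16103 probe sets. From week 2 to week 3, 5 of the 27 rose and 1 fell, and from week 3 to week 4, 2 rose and 5 fell. The shares of all genes in these intervals were 15.2% and 9.72%. With the random block for scan day in place of batch, 23 of all 16103 probe sets rose and 89 fell from week 2 to week 3, and 0 rose and 1 fell from week 3 to week 4. Of 42 other spliceosome subunits 1 rose, the RNA helicase Ddx5 (0.43, SE 0.10, adjusted p = 0.0050), and 1 fell, the export helicase Ddx39b (-0.33, SE 0.09, adjusted p = 0.017).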

How the data were processed

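The log2 values were deposited by the authors, 1 column per array, and were used as given. Per the submitters' processing notes they were made with GCRMA, whose version is not given in the sources used here. Age and batch came from the titles, and scan day and chip lot from the scanner records. For week 2 animal 5 title and description differ on the batch, and the title was followed. Array medians lay between 6.15 and 6.27, and the number of arrays limits the precision.

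Of 22690 probe sets, 20393 carried 1 symbol, 691 several and 1606 none. Those with a log2 value of at least 4 on at least 4 arrays, 16103 in all, entered 1 two-sided limma fit (version 3.58.1, R 4.3.3) of the 23 arrays, with age means and a batch term. P-values were adjusted by Benjamini-Hochberg over all of them, and the fit was tested on simulated data. Named genes were the changed genes of largest change per family and comparison, the steadiest bright genes, and genes whose probe sets were called in opposite directions; others stand beside counts and were chosen after their values were seen. The genes and lists were chosen with earlier results of these data known. Alternatives covered scan day, batch, scaling, filters, RNA length, array weights and probe set choice. Among probe sets chosen to represent a gene, 6 end in _s_at and 5 in _x_at, which may also bind other transcripts.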

Additional observations from a re-analysis of the deposited data

Results flagged for a closer look

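Among the groups of 4 to 6 animals of the named genes, 5 of 110 (4.55%) held an animal far from the rest of its group, and chance alone gives about 1 in 20. At week 10 the highest Hnrnpul2 animal, batch 1 animal 1 of scan day 1, was at 11.19. At week 3 the highest Snrpc animal, animal 6, was at 9.21, and the highest Prpf38b animal, animal 3, at 7.57. Animal 2 of week 3 was the lowest in both Rbm28, at 7.62, and Sf3b1, at 10.18.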

How the results depend on the processing

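Of 23 values named per gene and comparison, every alternative but 1 kept the sign of those that passed the test: with scan days 6 and 7 as 1 term, Rbm25 from week 2 to week 3 was -0.048. Hnrnph3 and Snrpa1 from week 2 to week 10 passed in all 18 alternatives. The 12 genes called between weeks 2 and 10 became 7 with a random block for scan day beside the batch term, 4 when a fixed term for scan day was used (week 3 left out), and 7 with animal number as a replicate block. Over all 16103 probe sets the main fit gave 1031 rises and 1717 falls. In the same order these became 958 and 1430, 714 and 809, and 810 and 1338. From week 2 to week 3, 8 became 5 without the batch term, 0 with either random block, 2 with days 6 and 7 as 1 term, 14 with array weights and 13 with the mean of all probe sets. Over all probe sets 1074 rises and 1496 falls became 623 and 1182 without the batch term. The block in place of batch left 23 and 89, and beside it 337 and 260. Days 6 and 7 as 1 term gave 483 and 675, and array weights 1782 and 2430. The mean of probe sets gave 624 and 974 of 9198 genes. From week 3 to week 4, 8 became 0 with either random block, with days 6 and 7 as 1 term and with the actin covariate, 18 with array weights and 3 with the replicate block. Over all probe sets 784 rises and 1055 falls became 0 and 1 with the block in place of batch and 14 and 177 beside it. Days 6 and 7 as 1 term left 0 and 2, and the actin covariate 0 and 0. Array weights gave 2151 and 1527, and the replicate block 397 and 866. From week 4 to week 5, 0 became 2 with array weights and 1 without scan day 7, an alternative added after seeing the data. Over all probe sets 3 rises and 9 falls became 418 and 417 with array weights and 112 and 257 without scan day 7. The F-test's 22 became 5 and 6 with the random blocks, 1 with the fixed term, 14 with days 6 and 7 as 1 term, 35 with array weights and 8 with the replicate block. Over all probe sets 5085 became 1811 with the block in place of batch, 2199 beside it and 666 with the fixed term. Days 6 and 7 as 1 term gave 3260, array weights 7256 and the replicate block 3345. Week 5 against week 2 in batch 1 gave 1 with the replicate block in place of 6, and in batch 2 it gave 2 with array weights and 7 with the mean of probe sets in place of 4. The cause was not tested.

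Leaving out each animal gave 7 to 13 for weeks 2 and 10 (lowest without week 10 animal 8), 6 to 10 for weeks 2 and 3, 3 to 9 for weeks 3 and 4 (lowest without week 4 animal 1, 4 without week 3 animal 3 or week 4 animal 2, and 5 without week 3 animal 5 or 6), 0 to 1 for weeks 4 and 5 (1 without week 4 animal 6), 0 for weeks 5 and 10, and 16 to 23 in the F-test. In batch 1 it gave 3 to 7 (3 without week 2 animal 4 or week 5 animal 7 or 8) and in batch 2 it gave 1 to 8 (1 without week 2 animal 1 or week 5 animal 2, and 8 without week 5 animal 4). Of the 23 fits that each left out 1 animal, Hnrnph3, Snrpa1, Prpf38a and Rbm19 passed between weeks 2 and 10 in all 23, Hnrnpdl in 21, Rbmxl1, Snrpb2 and Snrpc in 20 each, Sf3a1 in 19, Rbmx2 in 18, Hnrnpk in 17 and Hnrnpul2 in 14, and Prpf38b between weeks 3 and 4 in 10. Same-numbered animals of different ages had a median correlation of deviations of 0.02 (-0.32 to 0.35, 25 pairs). A shared origin was not tested.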
